A study of Arabidopsis thaliana with 9 samples.

Results

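The genes described here encode 4 classes of enzymes that modify small molecules in plants: cytochrome P450s, glutathione transferases, UDP-dependent glycosyltransferases and beta-glucosidases. They were taken as every array probe set listed with a single gene whose symbol is CYP, GSTU, GSTF, GSTZ, GSTL, UGT or BGLU followed by a number. That rule found 106 of the 13356 genes that had such a probe set, each with 1 probe set. CYP59 and CYP71 are cyclophilins, protein-folding enzymes that share the letters CYP, so they were set apart; neither passed the test in any comparison. The 104 genes that remained were 24 P450s, 13 glutathione transferases, 47 glycosyltransferases and 20 glucosidases. The gene table lists 237, 44, 58 and 40 genes with such symbols, and those without a named probe set were not analysed here. The P450s measured were therefore mostly of 1 subfamily, with 19 CYP71B genes. No P450 of the hormone metabolism families, such as CYP707, CYP88 and CYP90, and no zeta-class glutathione transferase was among the 104 genes.

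RNA came from dry seeds of Arabidopsis thaliana, harvested fresh when maturation was complete, and was measured on 9 Affymetrix arrays. NILDOG1 is a near isogenic line in the Landsberg erecta background that carries the DOG1 allele of the accession Cvi, and its DOG1 expression is labelled strong. The dog1-1 mutant, in the same background, is labelled as having none, and Ler, the Landsberg erecta wild type, is labelled low. DOG1 (DELAY OF GERMINATION 1) is a regulator of seed dormancy. It had no named probe set here, so the labels could not be checked against its level. Each genotype had 3 biological replicates, each a bulk of 8 plants, and each line is 1 genotype, so other loci that differ between the lines are not separated from DOG1. All values are log2 signals as the authors normalized them. A mean at or below 2.56, the highest value of the TrpnX control probe sets, is called background. With 3 arrays per genotype, the precision is limited by their number.

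Cytochrome P450s add oxygen to small molecules and act in the synthesis and breakdown of hormones, pigments and defence compounds. Glutathione transferases of the plant-specific tau and phi groups join glutathione to reactive compounds, whereas the lambda group transfers thiols. UDP-glycosyltransferases attach sugars to hormones, flavonoids, lignin precursors and toxins, which often makes them inactive or storable, and beta-glucosidases remove such sugars again. All 4 classes are large families whose genes often lie side by side on the chromosomes.

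In dog1-1 seeds 22 of the 104 genes (21.2%) differed from Ler in limma's test, at an adjusted p under 0.05 over all probe sets. Of these 12 were higher and 10 lower, beside 13.6% of all 22746 probe sets, with 8.33% higher and 5.28% lower. The largest rise was that of GSTU20 and the largest fall that of UGT85A5. Log2 changes ran between 0.38 and 1.43 among the rises, and the falls spanned 0.43 to 1.75 in size. The changes of 4 genes reached at least 2-fold, beside 3.45% of all probe sets. The arrays of dog1-1 and Ler did not overlap in 41 genes (39.4%), beside 26.9% of all probe sets. The median change of the 104 genes was -0.06, and that of all probe sets was -0.04. Between replicates the median SD of the genes was 0.13 in NILDOG1, 0.12 in dog1-1 and 0.12 in Ler.

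**Figure D1:**
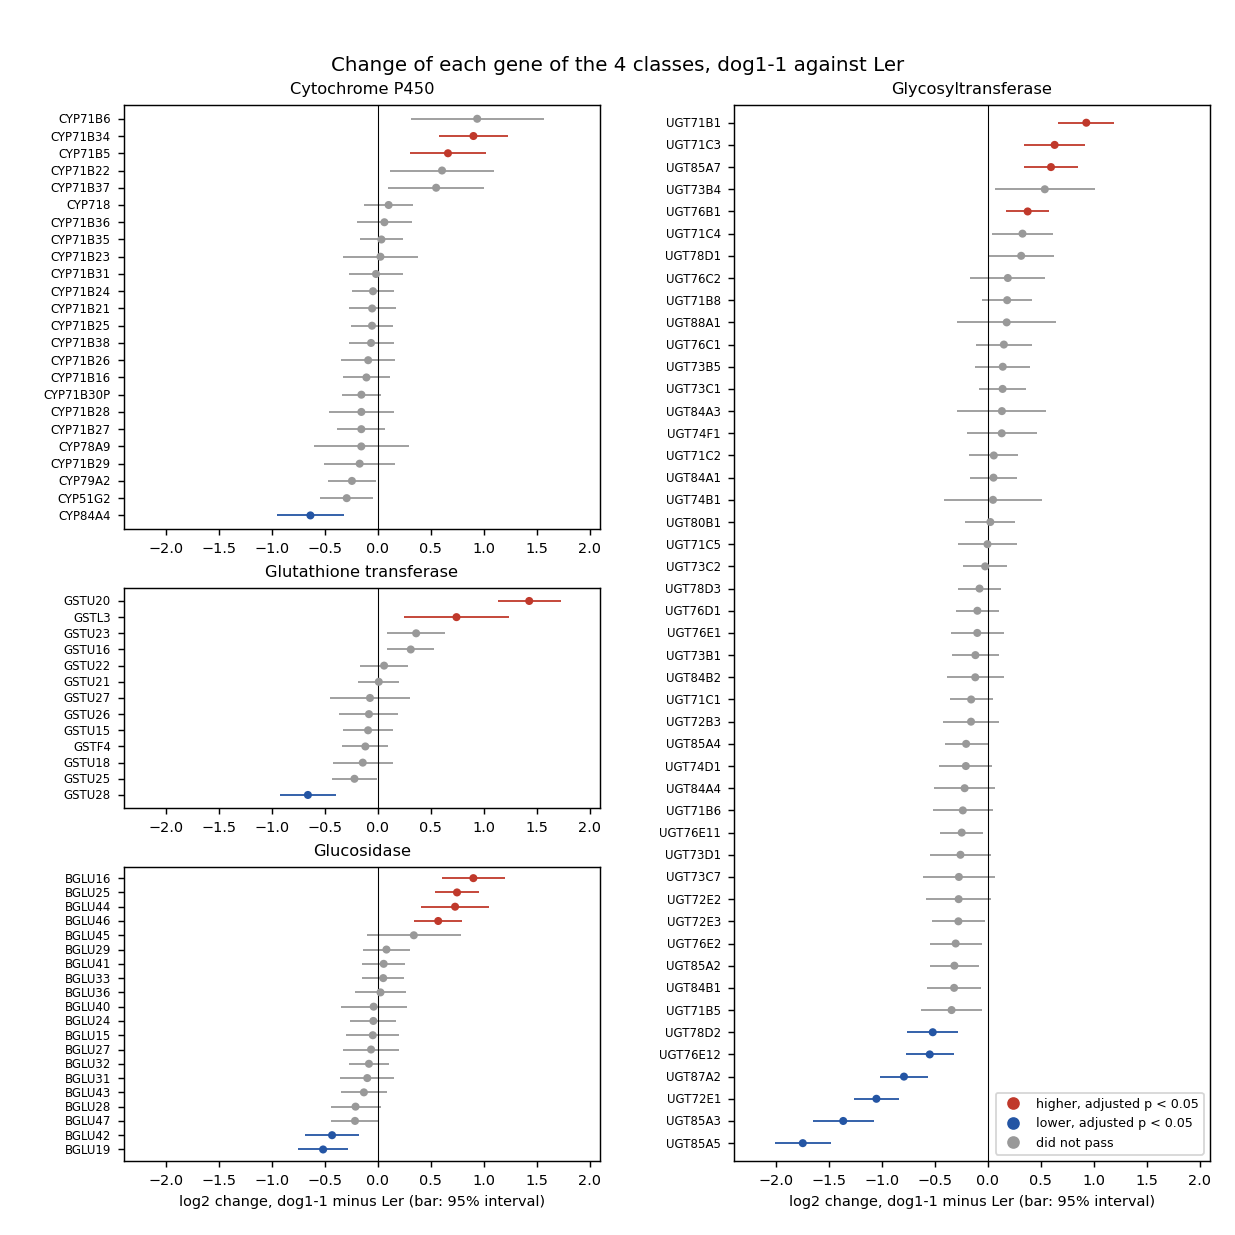
Log2 change, dog1-1 minus Ler, of each of the 104 genes in order of size within its class, with 95% intervals from the limma fit of 9 arrays (3 per genotype); red points passed the test as higher, blue as lower, and grey did not pass. GSTU20 stands at 1.43 and UGT85A5 at -1.75, while most genes of every class lie near 0.

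Setting the arrays on their hybridization controls instead of the authors' scale put the median change of all probe sets at 0.31 for dog1-1 minus Ler, 0.17 for NILDOG1 minus Ler and -0.15 for NILDOG1 minus dog1-1. On that scale 29 of the 104 genes passed in dog1-1 against Ler, 26 higher and 3 lower. Beside them 5173 of all 22746 probe sets passed, 4848 higher and 325 lower. Directions given below are therefore relative to the bulk of the probe sets. The 3 falls that passed on both scales were UGT85A5, UGT85A3 and UGT72E1. The hybridization controls averaged 9.13 to 9.27 on NILDOG1 arrays, 8.81 to 9.14 on dog1-1 arrays and 9.19 to 9.57 on Ler arrays. The 25S ribosomal RNA control stood at 7.33 on Ler replicate 1 and 8.04 on dog1-1 replicate 3, against 9.86 to 11.9 on the other arrays. Without this pair of arrays 16 genes passed, 7 higher and 9 lower, beside 1981 of all 22746 probe sets. The part of these array differences in the results was not tested. In bulk seed RNA, fewer cells of a type and less RNA per cell cannot be told apart.

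Among the markers of seed tissue, 3 of 20 listed dry seed genes had a named probe set. PAP85, a seed storage protein gene, was high in every genotype, at 13.50 ± 0.06 in NILDOG1, 13.54 ± 0.03 in dog1-1 and 13.45 ± 0.07 in Ler (SD, n = 3). OLEO3, for an oil body protein, did not pass in any comparison. M17, a late embryogenesis abundant gene, averaged 11.77 ± 0.29 in NILDOG1, 9.96 ± 0.28 in dog1-1 and 11.58 ± 0.09 in Ler, and fell by 1.62 on the log2 scale in dog1-1 against Ler (adjusted p = 2.95e-05). Of the 12 listed green tissue genes 3 were measured, and their mean per array lay between 6.73 and 6.91 in dog1-1, above 6.32 to 6.53 in NILDOG1 and 6.29 to 6.51 in Ler. In dog1-1 against Ler 2 of these 3 were higher and 1 was lower. The seed coat list had 2 of 9 genes measured and 0 called, and the endosperm list had 2 of 7, of which 1 was lower and AGL62 was at background. The part of these marker differences in the results was not tested.

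The glycosyltransferases held 10 of the 22 calls in dog1-1 against Ler, 4 higher and 6 lower of 47 genes (21.3%), beside 13.6% of all probe sets. Their most pronounced changes lay in 1 row of 4 UGT85A genes on chromosome 1, AT1G22340 to AT1G22380, within which genes moved in opposite directions. UGT85A5 (AT1G22370) measured 8.82, 8.74 and 8.88 in NILDOG1, 6.73, 6.71 and 6.69 in dog1-1, and 8.16, 8.65 and 8.55 in Ler. The dog1-1 arrays lay below all others, and the fall against Ler was 3.36-fold (log2 change -1.75 ± 0.12 SE, adjusted p = 1.84e-06 in limma). NILDOG1 exceeded dog1-1 by 4.30-fold (adjusted p = 3.51e-07), whereas NILDOG1 and Ler did not differ past the threshold (0.36, adjusted p = 0.534).

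Its neighbour UGT85A3 (AT1G22380) gave 7.63, 7.45 and 7.77 in NILDOG1, 6.55, 6.08 and 6.29 in dog1-1, and 7.62, 7.58 and 7.82 in Ler. Again only the dog1-1 arrays stood apart, with a fall of 2.58-fold against Ler (-1.37 ± 0.13 SE, adjusted p = 2.47e-05). UGT85A7 (AT1G22340), the first gene of the row, read 4.95, 4.71 and 4.98 in NILDOG1, 5.69, 5.44 and 5.66 in dog1-1, and 4.88, 5.15 and 4.96 in Ler. Here the dog1-1 arrays were above all others, a rise of 1.51-fold against Ler (0.60 ± 0.12 SE, adjusted p = 0.00407). Without Ler replicate 1 and dog1-1 replicate 3, the pair with low 25S signal, this rise did not pass (adjusted p = 0.0617), whereas the call of NILDOG1 against dog1-1 (-0.71, adjusted p = 0.00123) passed in every alternative fit. UGT85A2 (AT1G22360) lay between them in the row and averaged 5.08 in NILDOG1, 4.67 in dog1-1 and 4.99 in Ler. It passed in NILDOG1 against dog1-1 (0.41, adjusted p = 0.0228) and not in dog1-1 against Ler (-0.32, adjusted p = 0.0697). Its call ended without NILDOG1 replicate 2, NILDOG1 replicate 3 or dog1-1 replicate 3, at adjusted p values of 0.086 to 0.106. The call also ended on the hybridization-control scale, and its adjusted p reached 0.545 over the alternative fits. UGT85A4, which lies elsewhere on the chromosome, averaged 5.41 in NILDOG1, 5.40 in dog1-1 and 5.60 in Ler (dog1-1 minus Ler -0.21, adjusted p = 0.193).

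**Figure D2:**
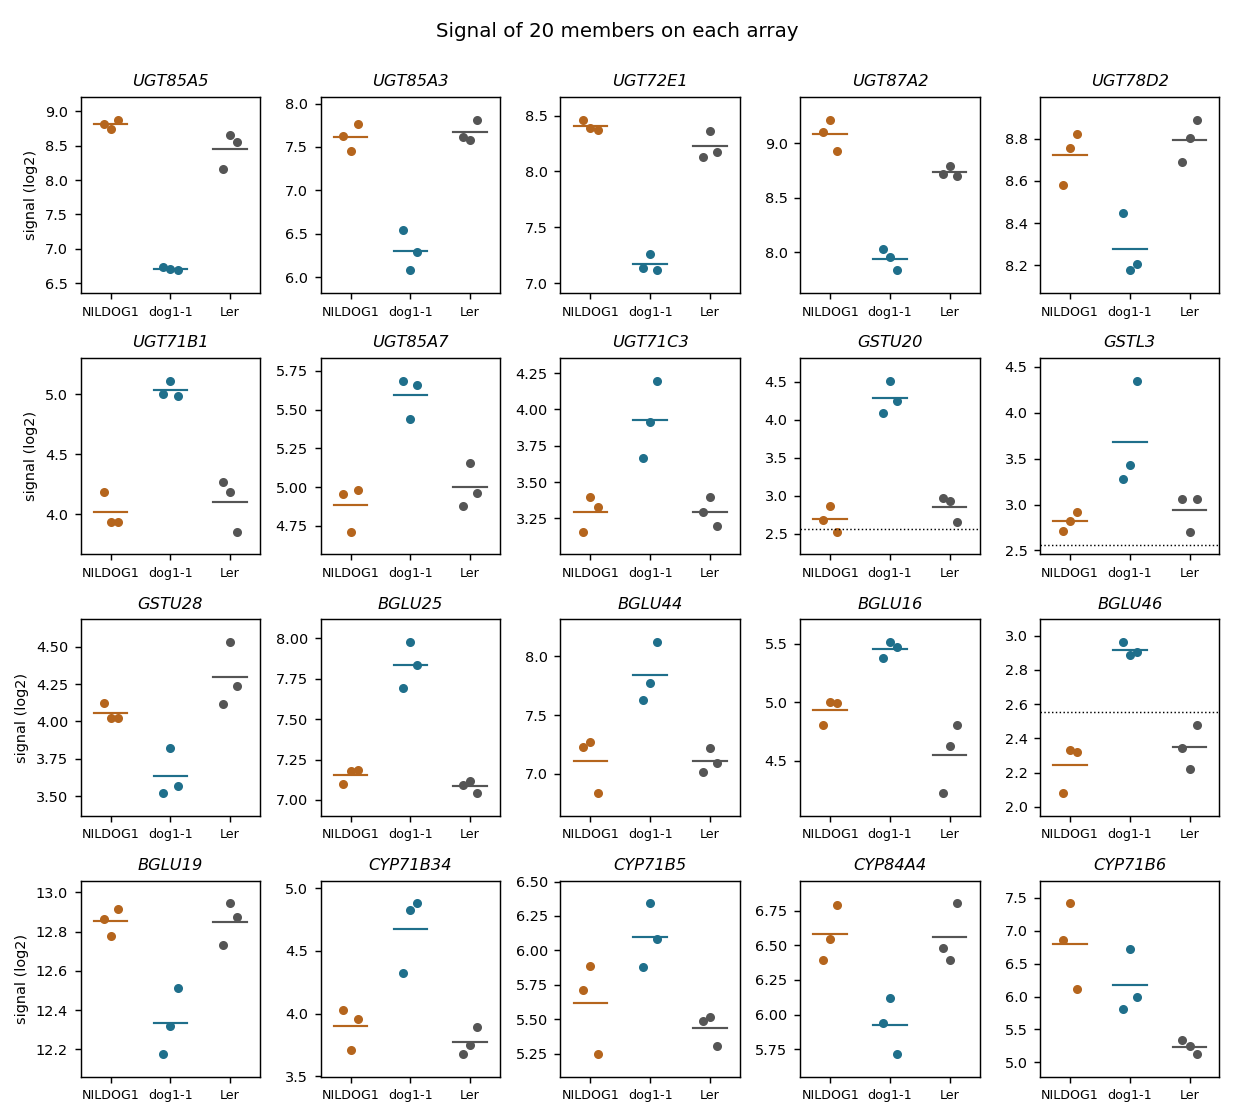
Log2 signal on each array for 20 of the genes, with NILDOG1, dog1-1 and Ler from left to right in each panel, 1 point per replicate, a line at the mean, and a dotted line at the background of 2.56. UGT85A5, UGT85A3 and UGT72E1 have their dog1-1 points below those of both other genotypes, and GSTU20, UGT71B1 and BGLU25 have them above.

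UGT72E1 (AT3G50740) glucosylates coniferyl and sinapyl aldehyde, intermediates on the way to lignin building blocks. Its signal was 8.46, 8.39 and 8.37 in NILDOG1, 7.14, 7.27 and 7.11 in dog1-1, and 8.13, 8.37 and 8.17 in Ler. The dog1-1 arrays lay below the others by more than the whole spread within any genotype, a fall of 2.07-fold against Ler (-1.05 ± 0.10 SE, adjusted p = 1.62e-05) and 2.35-fold below NILDOG1. UGT72E2 and UGT72E3, which act on monolignols, did not pass: UGT72E2 averaged 4.28 in NILDOG1, 3.84 in dog1-1 and 4.11 in Ler (dog1-1 minus Ler -0.28, adjusted p = 0.243), and UGT72E3 was at background in NILDOG1 and dog1-1. UGT87A2 (AT2G30140), known for its part in flowering time, read 9.10, 9.22 and 8.93 in NILDOG1, 8.03, 7.96 and 7.83 in dog1-1, and 8.71, 8.79 and 8.70 in Ler. No array of 1 genotype overlapped another, in the order NILDOG1, Ler, dog1-1. The fall in dog1-1 was 1.73-fold against Ler (-0.79, adjusted p = 2.15e-04), the difference NILDOG1 minus dog1-1 was 1.14 (adjusted p = 1.24e-05), and NILDOG1 minus Ler did not pass (0.35, adjusted p = 0.358). On the hybridization-control scale the fall of UGT87A2 against Ler had an adjusted p of 0.0637.

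UGT78D2 (AT5G17050), the flavonoid 3-O-glucosyltransferase, averaged 8.72 ± 0.13 in NILDOG1, 8.28 ± 0.15 in dog1-1 and 8.80 ± 0.10 in Ler (SD, n = 3). It fell in dog1-1 by 0.52 against Ler (adjusted p = 0.00667). Of its neighbours in function, the flavonol rhamnosyltransferase UGT78D1 averaged 3.27 in NILDOG1, 3.88 in dog1-1 and 3.57 in Ler. NILDOG1 was lower than dog1-1 in UGT78D1 by a log2 change of -0.62 (adjusted p = 0.013), and the arabinosyltransferase gene UGT78D3 was at background in all genotypes. UGT76E12 (AT3G46660) averaged 9.12 ± 0.05 in NILDOG1, 8.55 ± 0.12 in dog1-1 and 9.10 ± 0.15 in Ler, and the fall in dog1-1 was 0.55 on the log2 scale (adjusted p = 0.00358). UGT76E11, the next measured gene of the class on the chromosome, had the brightest glycosyltransferase probe set. It averaged 9.21 in NILDOG1, 9.03 in dog1-1 and 9.28 in Ler and did not pass in dog1-1 against Ler (-0.25, adjusted p = 0.114). The falls of UGT78D2 and UGT76E12 did not pass on the hybridization-control scale (adjusted p = 0.420 and 0.362). Without NILDOG1 replicate 2 or 3, or dog1-1 replicate 2 or 3, the difference of UGT78D2 between NILDOG1 and dog1-1 (0.45, adjusted p = 0.0176) had adjusted p values of 0.0624 to 0.0766. This difference also did not pass on the hybridization-control scale, and its adjusted p reached 0.471 over the alternative fits. The call of UGT78D1 between these lines ended without NILDOG1 replicate 2 or dog1-1 replicate 3 (0.0574 to 0.0615).

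The 4 glycosyltransferase genes higher in dog1-1 were UGT71B1, UGT71C3, UGT85A7 and UGT76B1. UGT71B1 (AT3G21750) read 4.19, 3.93 and 3.93 in NILDOG1, 5.0, 5.11 and 4.98 in dog1-1, and 4.26, 4.19 and 3.85 in Ler. Its dog1-1 arrays did not overlap any other, a rise of 1.90-fold against Ler (0.93, adjusted p = 2.52e-04), and NILDOG1 was 2.02-fold below dog1-1 (adjusted p = 1.34e-04). UGT71C3 (AT1G07260) averaged 3.29 ± 0.12 in NILDOG1, 3.93 ± 0.27 in dog1-1 and 3.30 ± 0.10 in Ler, a rise of 0.63 (adjusted p = 0.00653) that did not pass without the pair of low 25S signal (adjusted p = 0.0575). UGT76B1 (AT3G11340), which glucosylates isoleucic and salicylic acid in defence, averaged 4.02 ± 0.07 in NILDOG1, 4.30 ± 0.09 in dog1-1 and 3.93 ± 0.05 in Ler. Its rise of 0.38 (adjusted p = 0.0167) did not pass without dog1-1 replicate 3 (adjusted p = 0.0724).

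Glycosyltransferases of abscisic acid, the hormone that maintains dormancy, did not pass in any comparison. UGT71B6 averaged 3.40 in NILDOG1, 3.06 in dog1-1 and 3.30 in Ler (dog1-1 minus Ler -0.24, adjusted p = 0.291). UGT71C5 averaged 5.42 in NILDOG1, 5.18 in dog1-1 and 5.18 in Ler (dog1-1 minus Ler -0.004, adjusted p = 0.990). Its NILDOG1 arrays lay above all others, by 0.24 against Ler (adjusted p = 0.914) and 0.25 against dog1-1 (adjusted p = 0.273). Likewise without a call were the cytokinin glucosyltransferases UGT76C1 and UGT76C2, the auxin glucosyltransferases UGT74D1 and UGT84B1, the glucosinolate gene UGT74B1, the salicylic acid gene UGT74F1 and the sinapate gene UGT84A1. UGT80B1, which makes sterol glucosides and acts in the seed coat, averaged 6.76 in NILDOG1, 6.97 in dog1-1 and 6.94 in Ler (dog1-1 minus Ler 0.02, adjusted p = 0.925). By family, the genes that passed in dog1-1 against Ler were 3 of 5 UGT85, 2 of 9 UGT71 and 2 of 8 UGT76. A further 1 of 4 UGT72, 1 of 3 UGT78 and 1 of 1 UGT87 genes passed. In the other families these were 0 of 7 UGT73, 0 of 3 UGT74, 0 of 5 UGT84, 0 of 1 UGT80 and 0 of 1 UGT88. The share over all probe sets was 13.6%, and families of so few genes were not tested against it.

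Glutathione transferases held 3 calls in dog1-1 against Ler, 2 higher and 1 lower of 13 genes (23.1%), beside 13.6% of all probe sets. GSTU20 (AT1G78370), a tau-class enzyme known to interact with the light and jasmonate signalling protein FIN219, read 2.68, 2.87 and 2.53 in NILDOG1, 4.09, 4.51 and 4.24 in dog1-1, and 2.97, 2.93 and 2.65 in Ler. The NILDOG1 and Ler arrays lay near background, with NILDOG1 replicate 3 below it, while all dog1-1 arrays lay far over them, a rise of 2.69-fold against Ler (1.43 ± 0.14 SE, adjusted p = 2.11e-05). NILDOG1 was 3.01-fold below dog1-1 (adjusted p = 8.71e-06). GSTU20 is the last of a row of 4 tau genes on chromosome 1, and GSTU21, GSTU22 and GSTU23 beside it lay near background. These 3 did not pass in dog1-1 against Ler.

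GSTL3 (AT5G02790), of the lambda class, read 2.71, 2.82 and 2.92 in NILDOG1, 3.28, 3.43 and 4.35 in dog1-1, and 3.06, 2.70 and 3.06 in Ler. The dog1-1 arrays lay above the others, with dog1-1 replicate 3 far over the rest, and the rise of 0.74 ± 0.23 SE against Ler had an adjusted p of 0.0483. Leaving out any Ler array, dog1-1 replicate 2 or dog1-1 replicate 3 ended this call, at adjusted p values of 0.0513 to 0.152. The lower gene was GSTU28 (AT1G53680), at 4.12, 4.02 and 4.02 in NILDOG1, 3.52, 3.82 and 3.57 in dog1-1, and 4.12, 4.53 and 4.24 in Ler. Its dog1-1 arrays were below all others, a fall of 0.66 against Ler (adjusted p = 0.00311) that did not pass on the hybridization-control scale (adjusted p = 0.195). GSTU16, the brightest probe set of the class, averaged 6.16 in NILDOG1, 6.63 in dog1-1 and 6.32 in Ler. It passed in NILDOG1 against dog1-1 (-0.47, adjusted p = 0.00901) and not in dog1-1 against Ler (0.31, adjusted p = 0.0673).

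The glucosidases had 6 calls of 20 genes (30%) in dog1-1 against Ler, 4 higher and 2 lower, beside 13.6% of all probe sets. At background in every genotype were 8 of the 20. BGLU25 (AT3G03640) read 7.10, 7.18 and 7.19 in NILDOG1, 7.69, 7.98 and 7.83 in dog1-1, and 7.09, 7.12 and 7.04 in Ler. All dog1-1 arrays were above the others, a rise of 1.68-fold against Ler (0.75, adjusted p = 2.18e-04). BGLU16 (AT3G60130) read 4.81, 5.01 and 4.99 in NILDOG1, 5.38, 5.52 and 5.47 in dog1-1, and 4.23, 4.63 and 4.81 in Ler. Its dog1-1 arrays were again the highest, with a rise of 1.87-fold against Ler (0.90, adjusted p = 6.91e-04). The difference NILDOG1 minus dog1-1 was -0.52 (adjusted p = 0.0251). The gap between these sizes is the change NILDOG1 minus Ler, which did not pass (0.38, adjusted p = 0.575). Without any NILDOG1 array, or without dog1-1 replicate 2 or 3, the BGLU16 difference between NILDOG1 and dog1-1 had adjusted p values of 0.0513 to 0.106.

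BGLU44 (AT3G18080), whose enzyme releases mannose from manno-oligosaccharides, read 7.23, 7.27 and 6.84 in NILDOG1, 7.63, 7.78 and 8.12 in dog1-1, and 7.02, 7.22 and 7.09 in Ler. The dog1-1 arrays did not overlap the others, and the rise against Ler was 0.73 (adjusted p = 0.00487), which did not pass without the pair of low 25S signal (adjusted p = 0.065). BGLU43, the gene beside it, was at background in all genotypes. BGLU46 (AT1G61820), a glucosidase of monolignol glucosides, read 2.08, 2.33 and 2.32 in NILDOG1, 2.96, 2.89 and 2.90 in dog1-1, and 2.34, 2.22 and 2.48 in Ler. Only dog1-1 was above background, so no size is given for the difference against Ler, which passed the test (adjusted p = 0.0027). Its neighbour BGLU45, with the same kind of substrate, was at background in Ler and averaged 3.23 ± 0.52 in NILDOG1 and 2.77 ± 0.19 in dog1-1, with no call in any comparison.

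The 2 glucosidase genes that fell were BGLU19 and BGLU42. BGLU19 (AT3G21370), the brightest probe set among the 104 genes, read 12.87, 12.78 and 12.92 in NILDOG1, 12.18, 12.32 and 12.51 in dog1-1, and 12.73, 12.94 and 12.88 in Ler. The dog1-1 arrays lay below the others by 0.52 against Ler on the log2 scale (adjusted p = 0.0066). On the hybridization-control scale this difference did not pass (adjusted p = 0.467). BGLU42 (AT5G36890), known from iron uptake and root immunity, averaged 3.63 ± 0.13 in NILDOG1, 3.35 ± 0.18 in dog1-1 and 3.78 ± 0.13 in Ler. Its fall of 0.43 (adjusted p = 0.03) ended without Ler replicate 1, Ler replicate 3, dog1-1 replicate 1 or dog1-1 replicate 2 (adjusted p = 0.0696 to 0.0967). The fall also did not pass on the hybridization-control scale, and its adjusted p reached 0.709 over the alternative fits. BGLU33, whose enzyme releases abscisic acid from its glucose ester, was at background in every genotype.

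The P450s held 3 calls of 24 genes (12.5%) in dog1-1 against Ler, a share near the 13.6% of all probe sets. Of these 2 were higher and 1 lower, and 9 of the 24 were at background in every genotype. CYP71B34 (AT3G26300) read 4.03, 3.71 and 3.96 in NILDOG1, 4.32, 4.83 and 4.88 in dog1-1, and 3.68, 3.75 and 3.89 in Ler. The dog1-1 arrays were above the others, a rise of 1.87-fold against Ler (0.90, adjusted p = 0.00123), and NILDOG1 minus dog1-1 was -0.78 (adjusted p = 0.00362). CYP71B34 lies in a row of 11 measured CYP71B genes on chromosome 3, of which it alone passed in dog1-1 against Ler. The fitted changes in that row ran between -0.11 and 0.90, genes at background included. CYP71B5 (AT3G53280), in another row of that chromosome, averaged 5.62 ± 0.33 in NILDOG1, 6.10 ± 0.23 in dog1-1 and 5.44 ± 0.11 in Ler. Its rise of 0.66 (adjusted p = 0.0173) ended without Ler replicate 3, dog1-1 replicate 2 or dog1-1 replicate 3 (adjusted p = 0.0548 to 0.0772).

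CYP84A4 (AT5G04330), an enzyme of arabidopyrone synthesis, read 6.40, 6.55 and 6.79 in NILDOG1, 5.94, 6.12 and 5.72 in dog1-1, and 6.48, 6.39 and 6.80 in Ler. The dog1-1 arrays lay below the others, and the fall against Ler was 0.64 on the log2 scale (adjusted p = 0.0112). Leaving out Ler replicate 3 or dog1-1 replicate 3 gave adjusted p values of 0.0527 and 0.0598. The fall also did not pass on the hybridization-control scale, and its adjusted p reached 0.217 over the alternative fits. CYP71B28, the brightest probe set of the P450s, averaged 7.26 in NILDOG1, 7.06 in dog1-1 and 7.22 in Ler and did not pass (dog1-1 minus Ler -0.15, adjusted p = 0.546). CYP79A2, which starts benzylglucosinolate synthesis, averaged 2.86 in NILDOG1, 2.64 in dog1-1 and 2.88 in Ler and did not pass either.

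**Figure D3:**
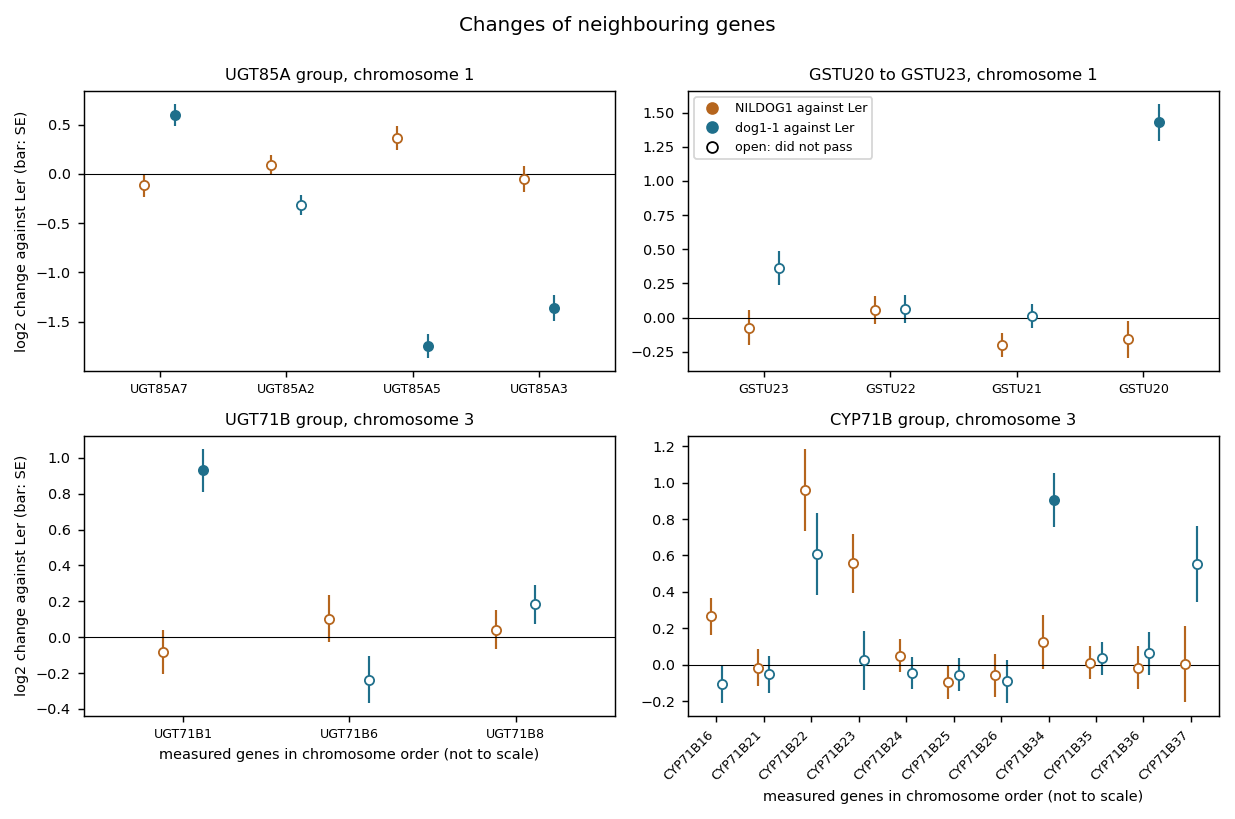
Log2 change with standard error, NILDOG1 against Ler and dog1-1 against Ler, for the genes of 4 chromosome rows. The rows (UGT85A, GSTU20 to GSTU23, UGT71B and CYP71B) are in their order along the chromosome, with open points for changes that did not pass. In the UGT85A row UGT85A7 was higher and UGT85A5 and UGT85A3 lower in dog1-1 than in Ler. In the GSTU and CYP71B rows 1 gene each passed, in dog1-1 against Ler. CYP71B22 lay at 0.96 in NILDOG1 against Ler and did not pass.

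Rows of neighbours were defined as genes of 1 class at most 5 protein-coding genes apart. They numbered 24 and held 66 of the 104 genes. CYP71B27 and CYP51G2 had no place in the order of protein-coding genes and could not enter a row. In dog1-1 against Ler 11 rows held at least 1 call. The UGT85A row was the only one with more than 1 call and the only one with calls in both directions. Rows held 2 to 11 genes each, and 22 of the 104 genes (21.2%) passed in that comparison, beside 13.6% of all probe sets. The count of rows was not tested against these shares. Sequence-alike neighbours can share probe matches, and 6 further probe sets with symbols of these families were listed with several genes and left out. On chromosome 5, where DOG1 (AT5G45830) lies, 16 genes were measured. In dog1-1 against Ler 4 of them passed, beside 13.6% of all probe sets, namely GSTL3, CYP84A4, UGT78D2 and BGLU42. None of the 16 lies between AT5G40000 and AT5G52000, and none passed in NILDOG1 against Ler. Before AT5G10000 lie 5 of the 16, and 2 of these, GSTL3 and CYP84A4, passed in dog1-1 against Ler. In that stretch 71 of 428 named probe sets passed in dog1-1 against Ler, beside 13.6% of all probe sets. In NILDOG1 against Ler 15 of the 428 passed, beside 0.545% of all probe sets.

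NILDOG1 differed from Ler in 1 of the 104 genes (0.962%), beside 0.545% of all probe sets, with 0.321% higher and 0.224% lower. At an unadjusted p under 0.05 15 of the 104 genes differed, beside 1343 of all 22746 probe sets, with 5 P450s, 1 glutathione transferase, 7 glycosyltransferases and 2 glucosidases. Arrays did not overlap in 17 genes (16.3%), beside 9.32% of all probe sets. The gene that passed was CYP71B6 (AT2G24180), which converts indole-3-acetonitrile to indole-3-carboxylic acid. It read 6.85, 7.42 and 6.12 in NILDOG1, 5.81, 6.72 and 6.0 in dog1-1, and 5.34, 5.25 and 5.13 in Ler. Both lines lay above all Ler arrays and overlapped each other, and the NILDOG1 arrays had the largest SD of all 104 genes in that line (0.65). NILDOG1 was 2.94-fold above Ler (1.56 ± 0.29 SE, adjusted p = 0.0337). The dog1-1 change of 0.94 had an adjusted p of 0.0502, and NILDOG1 minus dog1-1 was 0.62 (adjusted p = 0.218). Without any Ler array, NILDOG1 replicate 1 or NILDOG1 replicate 2 the call ended, at adjusted p values of 0.112 to 0.182.

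CYP71B22 averaged 5.79 ± 0.49 in NILDOG1, 5.44 ± 0.08 in dog1-1 and 4.83 ± 0.38 in Ler, and CYP78A9, which promotes growth of fruits and seeds, averaged 4.38 ± 0.25 in NILDOG1, 5.17 ± 0.40 in dog1-1 and 5.33 ± 0.31 in Ler. Neither passed in NILDOG1 against Ler, with log2 changes of 0.96 (adjusted p = 0.144) and -0.94 (adjusted p = 0.0947). UGT73B5, a gene of pathogen defence, was at background in Ler and averaged 3.03 in NILDOG1 and 2.66 in dog1-1, and its NILDOG1 difference did not pass (adjusted p = 0.136).

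NILDOG1 against dog1-1 sets the line labelled strong against the one labelled as having no DOG1 expression, on the same dog1-1 arrays as above. It gave 26 calls of 104 genes (25%), 12 higher and 14 lower in NILDOG1, beside 12.5% of all probe sets with 4.94% higher and 7.52% lower. Calls of at least 2-fold numbered 6, beside 3.43% of all probe sets, and arrays did not overlap in 42 genes (40.4%), beside 27% of all probe sets. By class the calls were 2 higher and 2 lower of 24 P450s, 1 higher and 4 lower of 13 glutathione transferases, 8 higher and 4 lower of 47 glycosyltransferases, and 1 higher and 4 lower of 20 glucosidases. On the hybridization-control scale 21 passed, 4 higher and 17 lower, beside 2504 of all probe sets, 430 higher and 2074 lower. Without dog1-1 replicate 3 alone 16 passed, beside 2064 of all probe sets. Genes that passed here and not in dog1-1 against Ler were CYP71B16, UGT73C7 and UGT85A2, higher in NILDOG1, and CYP78A9, GSTU16, GSTU23 and UGT78D1, lower in NILDOG1. CYP71B16 read 2.60, 2.61 and 2.85 in NILDOG1 and was at background in dog1-1 and Ler, so no size is given for its call against dog1-1 (adjusted p = 0.0326). GSTU23 averaged 2.48 in NILDOG1, 2.91 in dog1-1 and 2.55 in Ler, so only dog1-1 was above background and no size is given (adjusted p = 0.0405). For CYP78A9 NILDOG1 minus dog1-1 was -0.79 (adjusted p = 0.025), and for UGT73C7 it was 0.62 (adjusted p = 0.0213).

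Of these, the calls of CYP71B16, UGT73C7, CYP78A9 and GSTU23 each ended when single arrays were left out. So did those of UGT85A2 and UGT78D1, as given above, whereas that of GSTU16 held. Without NILDOG1 replicate 1 or 3, or dog1-1 replicate 2 or 3, CYP71B16 had adjusted p values of 0.0529 to 0.134. UGT73C7 had 0.0587 to 0.0935 without NILDOG1 replicate 1 or 2, or dog1-1 replicate 2 or 3. CYP78A9 had 0.053 to 0.113 without NILDOG1 replicate 2 or 3, or dog1-1 replicate 2 or 3. GSTU23 had 0.0638 to 0.157 without any NILDOG1 array, or without dog1-1 replicate 1 or 3. GSTU28 (0.42, adjusted p = 0.0434) had 0.0915 to 0.148 without the same arrays. GSTL3 (-0.87, adjusted p = 0.0239) had 0.0548 to 0.092 without any NILDOG1 array, and CYP84A4 (0.65, adjusted p = 0.00975) had 0.053 without dog1-1 replicate 3. On the hybridization-control scale CYP71B16, UGT73C7, GSTU28 and CYP84A4 did not pass in this comparison. Their adjusted p values reached 0.594, 0.241, 0.558 and 0.112 over the alternative fits.

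**Figure D4:**
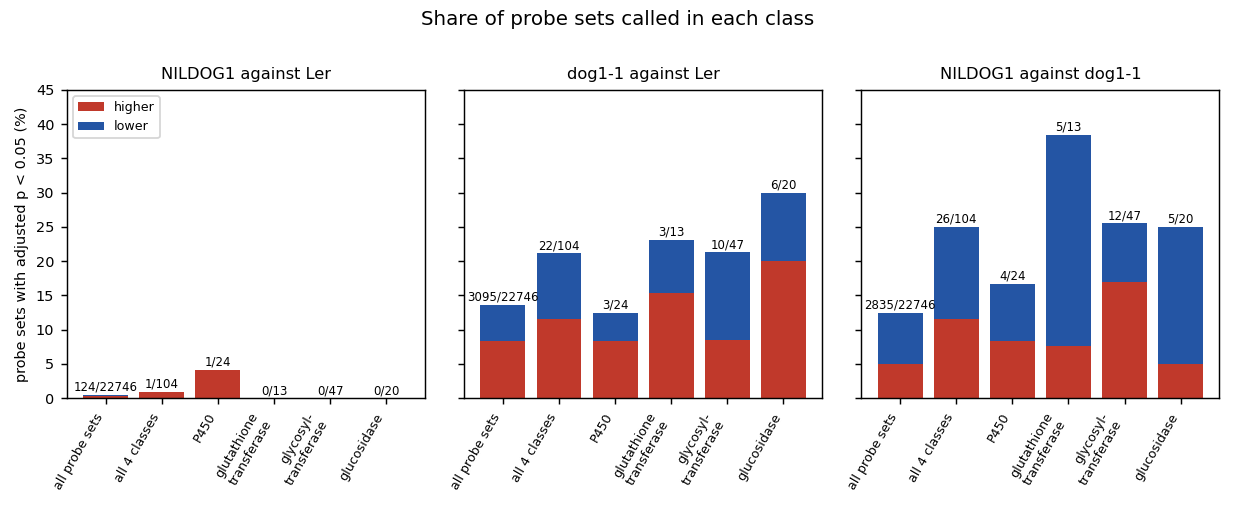
Percent of genes past the test, stacked by direction, in each enzyme class and among all 22746 probe sets, for NILDOG1 against Ler, dog1-1 against Ler and NILDOG1 against dog1-1. In dog1-1 against Ler the glucosidases reached 30% and the P450s 12.5%, beside 13.6% of all probe sets.

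Setting the 2-fold minimum aside, 9 of the 22 genes called in dog1-1 against Ler were called under every alternative fit that tested them: GSTU20, UGT85A5, UGT85A3, UGT72E1, UGT71B1, BGLU16, BGLU25, BGLU46 and CYP71B34. BGLU46 was not tested under the low-signal filter, which removed it, and the first 4 of these were also those of at least 2-fold. Genes that work beside these enzymes were looked for in a list of 48, of which 2 had a named probe set. GR1, glutathione reductase, averaged 7.21 ± 0.22 in NILDOG1, 7.80 ± 0.05 in dog1-1 and 7.14 ± 0.04 in Ler, and rose in dog1-1 by a log2 change of 0.65 (adjusted p = 0.0018). AER, an alkenal reductase, averaged 9.62 ± 0.10 in NILDOG1, 9.28 ± 0.12 in dog1-1 and 9.72 ± 0.13 in Ler, and fell in dog1-1 by 0.44 on the log2 scale (adjusted p = 0.0157). Neither passed in NILDOG1 against Ler.

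At or below background in all 3 genotypes were 24 of the 104 genes (23.1%), beside 17.3% of all probe sets. These were 9 P450s, 3 glutathione transferases, 4 glycosyltransferases and 8 glucosidases, and changes in such genes may be missed at this signal. A few probe sets carried the same value on all 3 arrays of a genotype, namely BGLU33 in NILDOG1, GSTU15 in dog1-1 and CYP71B28 in Ler.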

How the data were processed

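The authors deposited log2 signals, 1 per probe set and array, made with RMA per the submitters' processing notes; its version, chip definition and log base are not given, and the log2 scale was read from the values (1.68 to 14.4). Of 22810 probe sets 64 Affymetrix controls were left out and 22746 tested in 1 limma 3.58.1 fit (R 4.3.3, lmFit and eBayes, genotype as the only term, 9 arrays, 6 residual degrees of freedom). The p-values were adjusted by Benjamini and Hochberg's method across every probe set tested, and calls took 0.05 without a fold minimum. Names came from the array's annotation table, joined to a gene table by gene identifier; coordinates are not printed, since no build is named. No sequence of the genes was used here.

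The genes, lists and tests were chosen with earlier results of these data known. Named were up to 4 called genes per direction, class and comparison, taken by size where the arrays of both genotypes lay apart, every call in NILDOG1 against Ler, the highest signal of each class and genes with known roles. UGT76E12, the row neighbours, families and genes that complete a count were added after their values were seen. CYP718 was kept as a P450, although it has no subfamily letter. Apart from naming the brightest probe set of each class, levels were compared between genotypes only, since probes differ in response. The labels mention blocks but tie no replicate number to one. The replicate numbers did not pair the arrays: after removal of genotype means, arrays with the same number correlated at -0.231 to 0.0299 (0 of 9 over 0.1). Arrays with other numbers correlated at -0.151 to 0.275 (6 of 18 over 0.1), so blocks that run under other numbers could not be checked. Replicates are bulks of plants. Alternatives were arrays of 2 genotypes only, hybridization-control centring, a prior following the mean signal, a low-signal filter, replicate blocks, left-out arrays, a 2-fold minimum and inclusion of the cyclophilins.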

Additional observations from a re-analysis of the deposited data

How the results depend on the processing

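In dog1-1 against Ler the 22 calls among the 104 genes became 29 on the hybridization-control scale (26 higher, 3 lower) and 4 with a 2-fold minimum, and lay between 19 and 23 with 1 array left out. Over all probe sets 3095 calls became 5173 (4848 higher, 325 lower, against 1894 and 1201), 1981 without the pair of arrays with low 25S ribosomal RNA signal (Ler replicate 1 and dog1-1 replicate 3) and 784 with a 2-fold minimum (2182 to 3059 with 1 array left out). By class, the 3 P450 calls became 5 on the control scale, 1 without that pair and 0 with a 2-fold minimum (1 to 4 with 1 array left out, 1 without dog1-1 replicate 3), and with a 2-fold minimum glutathione transferases had 1 call, glycosyltransferases 3 and glucosidases 0. In NILDOG1 against Ler the 124 calls over all probe sets became 70 without the pair and 71 with a 2-fold minimum (65 to 115 with 1 array left out). The single gene became 0 with the arrays of these genotypes only, 3 on the control scale (2 P450s and 1 glucosidase) and 0 without the pair, with 0 to 2 when 1 array was left out, all P450s. In NILDOG1 against dog1-1 the 2835 calls over all probe sets became 2504 on the control scale (430 higher, 2074 lower, against 1124 and 1711) and 781 with a 2-fold minimum (2064 to 2833 with 1 array left out). The 26 genes became 17 without the pair and 6 with a 2-fold minimum (16 to 26 with 1 array left out). P450 calls there were 1 without the pair, 0 with a 2-fold minimum and 1 to 5 with 1 array left out. Glutathione transferases had 3 with these genotypes only, 3 without the pair, 1 with a 2-fold minimum and 2 to 5 with 1 array left out. With a 2-fold minimum glycosyltransferases had 5 and glucosidases 0. The replicate block, whose numbers did not pair the arrays, gave 24, 1 and 28 genes in dog1-1 against Ler, NILDOG1 against Ler and NILDOG1 against dog1-1. The cause was not tested, except that a 2-fold minimum can only lower a count. The prior, the low-signal filter and the cyclophilins moved no count of the 104 genes by more than 1.5 times, and no called change reversed its direction. Leaving out probe sets ending in _s_at or _x_at was not run, since none of the 104 has such a name. Without detection calls, signal near the control probe sets limits what can be seen in low genes.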
